A study of Rattus norvegicus with 13 samples.

Results

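The cytosolic translation initiation factors (eIF) and elongation factors (eEF) of rat liver were followed in microdissected oval cells and early preneoplastic foci against control liver. Members were the probes whose annotated gene symbol began with Eif1 to Eif6, Eef1 or Eef2, and symbols holding "bp" or "ak" (4E-binding proteins, eIF2 kinases and the Eef1a methyltransferases, 8 probes) were left out. This gave 44 probes for 40 genes among the 22523 probes of the expression array, which name 13337 genes, and the rule itself uses symbols and no measured value. The rule also takes in Eef2k and Eef2kmt, which modify eEF2, and Eif4enif1, which carries eIF4E into the nucleus. A probe was tested when its median intensity was above 300 in at least 1 group, which kept 37 member probes for 33 genes, out of 6997 probes tested in all. Eef1a2, Eef2kmt, Eif1ax, Eif2a, Eif3k, Eif4enif1 and Eif5a2 did not pass this limit.

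The material was liver of male Fischer rats. Oval cells (6 arrays) and preneoplastic foci (5 arrays) came from rats that went through the resistant-hepatocyte protocol, in which diethylnitrosamine (DENA) is followed by a diet with 2-acetylaminofluorene (2-AAF) and by partial hepatectomy, and both were cut out with a laser a week after the operation. Oval cells were recognised by morphology and immunostaining (CK-19, GSTP, GGT). The study describes the samples of oval cells and of foci alike as pools of microdissected material. The Control group (2 arrays) is labelled as hepatocytes of the liver, and the study describes it in one place as random areas of normal liver, in another as random areas from rats under the protocol, and elsewhere as age-matched controls. Ages are not given in the sources used here. Whatever differs from control can therefore follow cell type or exposure, which cannot be told apart. The labels name no separate animals, and the oval cell arrays outnumber the animals the study names, so some arrays share an animal and every p-value over arrays given here is too small. Controls and oval cells were on slide 1 (8 arrays) and all foci on slide 2 (5 arrays), so for foci the slide cannot be told apart from the group.

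Markers of the cells were measured on the same arrays. The summed intensity of the hepatocyte list, of which 8 of 9 probes had a median above 300 in every group (the measure used for all lists), was 250401 to 255816 in control, 207748 to 233143 in oval cells and 202291 to 240000 in foci. These 8 probes are very bright, where quantile normalization fixes values by rank, so the sums do not measure hepatocyte content. The 2 Alb probes had means of 35095 and 25479 in control but 39885 and 11684 in oval cells. Ttr had means of 39244 in control, 23434 in oval cells and 21419 in foci. The biliary and oval cell list summed to 1879 to 2057 in control with Krt19, Krt7, Spp1, Tspan8 and Cldn4 under 300, to 22651 to 34131 in oval cells with all 7 probes above 300, and to 3467 to 6796 in foci with Krt7 and Cldn4 under 300. Genes of preneoplastic foci summed to 4005 to 4819, 30350 to 41430 and 95311 to 115770 in the same order, and of 3 Gstp1 probes one stayed under 300 while the other two had means of 305 and 414 in control, 1329 and 7873 in oval cells, and 10291 and 42013 in foci. The stellate and matrix list (7471 to 8861, 41702 to 56315 and 8918 to 16531) and the macrophage list (6420 to 7960, 10436 to 14673 and 5850 to 8059) summed highest in oval cells. So did the endothelial list (3 probes, 1548 to 1856, 2606 to 3760 and 1737 to 2176) and the lymphocyte list (6 probes, 1448 to 1509, 1732 to 2687 and 1363 to 1514). The macrophage members did not move as one. Cd163 had means of 486 in control, 324 in oval cells and 282 in foci. In foci Marco was lower than in control (means 394 and 1093) and Cd74 higher (1803 and 978). The proliferation list was 3574 to 3858 in control, 11574 to 14530 in oval cells and 10307 to 17907 in foci. Erythroid probes went the other way, at 26237 to 29730 in control, 3154 to 7238 in oval cells and 6249 to 7647 in foci. The oval cell arrays therefore held hepatocyte, stromal and macrophage transcripts as well, and the part of these lists in the differences given here was not tested. In such bulk samples, fewer cells of a type and less RNA per cell cannot be told apart.

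Translation starts when eIF2 carries the initiator tRNA to the small ribosomal subunit, helped by eIF1, eIF1A and eIF3, while eIF4E, eIF4G and the helicase eIF4A bring in the capped mRNA. The exchange factor eIF2B recharges eIF2 with GTP, and phosphorylation of the alpha subunit of eIF2 blocks that exchange and lowers initiation. During elongation eEF1A delivers aminoacyl-tRNA, the eEF1B subunits recharge eEF1A, eEF2 moves the ribosome along, and Eef2k inhibits eEF2 by phosphorylation. Many mRNAs for ribosomal proteins and elongation factors begin with a run of pyrimidines, the TOP motif, through which mTOR signalling controls their translation, and the E-box CACGTG is a binding motif of Myc and related factors at growth genes.

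The starts of some factor genes that hold these motifs are shown so that the letters can be read beside the values. Of the 8 members that rose in either tissue, Eef1e1 and Eif3m held a pyrimidine run, Eif5a held an E-box, Eif2s1, Eif2b3, Eif3d and Eif4a1 held neither, and Eef1d had no window. RefSeq windows (assembly GRCr8, 250 bases before to 50 after the annotated start) were found for 35 of the 40 genes. A TOP-like run, defined as a C followed by pyrimidines (C or T), at least 5 bases long in all, counted from a C within 5 bases of the annotated start whatever base precedes it and read on the gene's strand only, was in 10 of 35 windows (28.6%), against 19% of all 27457 gene windows and 18.7% of those of tested genes. The 10 genes were Eef1a1, Eef1b2, Eef1e1, Eif2a, Eif2b5, Eif2s3, Eif3c, Eif3m, Eif4g3 and Eif5a2. By adjusted p (values below) Eif2b5 was lower than control in both tissues, Eif4g3 was lower in foci, and Eif2s3 differed in neither. Eif2a and Eif5a2 were not tested. In the stretches below, which run from 25 bases before the start to 20 after it on the gene's strand, capitals mark the run in Eef1a1 (chr8:88225050-88225094, minus strand), Eef1b2 (chr9:72074066-72074110, plus strand), Eef1e1 (chr17:26354222-26354266, plus strand) and Eif3m (chr3:111897174-111897218, minus strand). In Eef1a1 and Eef1e1 further pyrimidines lie directly before the capitals.
Eef1a1: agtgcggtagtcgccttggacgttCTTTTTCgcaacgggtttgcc
Eef1b2: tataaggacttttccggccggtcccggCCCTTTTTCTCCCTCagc
Eef1e1: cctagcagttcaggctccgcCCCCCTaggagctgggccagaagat
Eif3m: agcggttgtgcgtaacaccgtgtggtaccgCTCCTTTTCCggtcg

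The E-box CACGTG, which reads the same on both strands, was in 8 of the 35 windows (22.9%), against 7.08% of all windows and 10.2% of those of tested genes. The 8 genes were Eif4e, Eif5a, Eif5a2, Eef2, Eef2k, Eif1b, Eif4h and Eif3a. They are shown for Eif5a (chr10:55143407-55143442, minus strand), Eef2 (chr7:9189294-9189329, minus strand), Eif4h (chr12:27719509-27719544, plus strand) and Eef2k (chr1:184824328-184824363, plus strand), with the motif in capitals. An E-box can overlap a pyrimidine run only by an edge base, and a match describes the letters and not a bound site.
Eif5a: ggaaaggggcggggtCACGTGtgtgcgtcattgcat
Eef2: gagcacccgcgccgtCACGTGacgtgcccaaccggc
Eif4h: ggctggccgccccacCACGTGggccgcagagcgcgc
Eef2k: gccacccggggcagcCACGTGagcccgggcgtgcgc

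Against control, with quantile normalization, translation factors were more often higher than lower in both tissues, and the largest differences were in foci. Intensities were compared on the log2 scale with limma over all 13 arrays, and a probe was said to rise or fall where it differed at least 2-fold and its adjusted p was under 0.05. In oval cells 2 of 37 member probes rose, Eef1d and Eif5a, and 0 fell, where 13.5% of all tested probes rose and 12% fell. By adjusted p alone 22 member probes were higher and 4 lower in oval cells, beside 36.4% and 34.4% of all tested probes, and 22 and 5 had arrays that did not overlap with control, beside 37.7% and 35.7%. The median log2 difference of the member probes was 0.38, and that of all tested probes 0.01.

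In foci 8 of 37 member probes rose and 0 fell, where 10.3% of all tested probes rose and 7.8% fell. They were Eif5a, Eif3m, Eif4a1, Eef1e1, Eif3d, Eef1d, Eif2s1 and Eif2b3. By adjusted p alone 19 were higher and 8 lower, beside 32.7% and 32% of all, and 19 and 9 did not overlap with control, beside 34.5% and 34.1%. The median was 0.32 against 0.01 for all tested probes. With cyclic loess normalization the excess was smaller. The member medians were then 0.19 in oval cells and 0.11 in foci, against -0.02 and -0.04 for all tested probes. By adjusted p, 16 members were then higher and 5 lower in oval cells, and 15 higher and 11 lower in foci.

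These directions against control are relative to all other probes on the array, and they turn if the array is centred on its ribosomal protein probes. Of 52 tested ribosomal protein probes, 51 were higher in oval cells and 49 in foci by adjusted p, with median log2 differences of 0.90 and 0.84. With each array centred on them, the median of all tested probes moved from 0.01 to -0.88 in oval cells and to -0.84 in foci, 1 member (Eef1d) was higher and 28 were lower in oval cells, and 6 (Eef1d, Eef1e1, Eif3d, Eif3m, Eif4a1 and Eif5a) were higher and 26 lower in foci. Of the 22 member probes higher in oval cells 13 became lower by this centring, and of the 19 higher in foci 8 did. Quantile normalization gives all arrays one distribution, so neither scale shows the total amount of mRNA. Below, a direction against control is on the quantile scale, and the members that stay higher on the ribosomal scale are those named above. Ribosomal centring lowers values against control, so a member already lower could not turn by it, and its staying lower is no support.

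**Figure D1:**
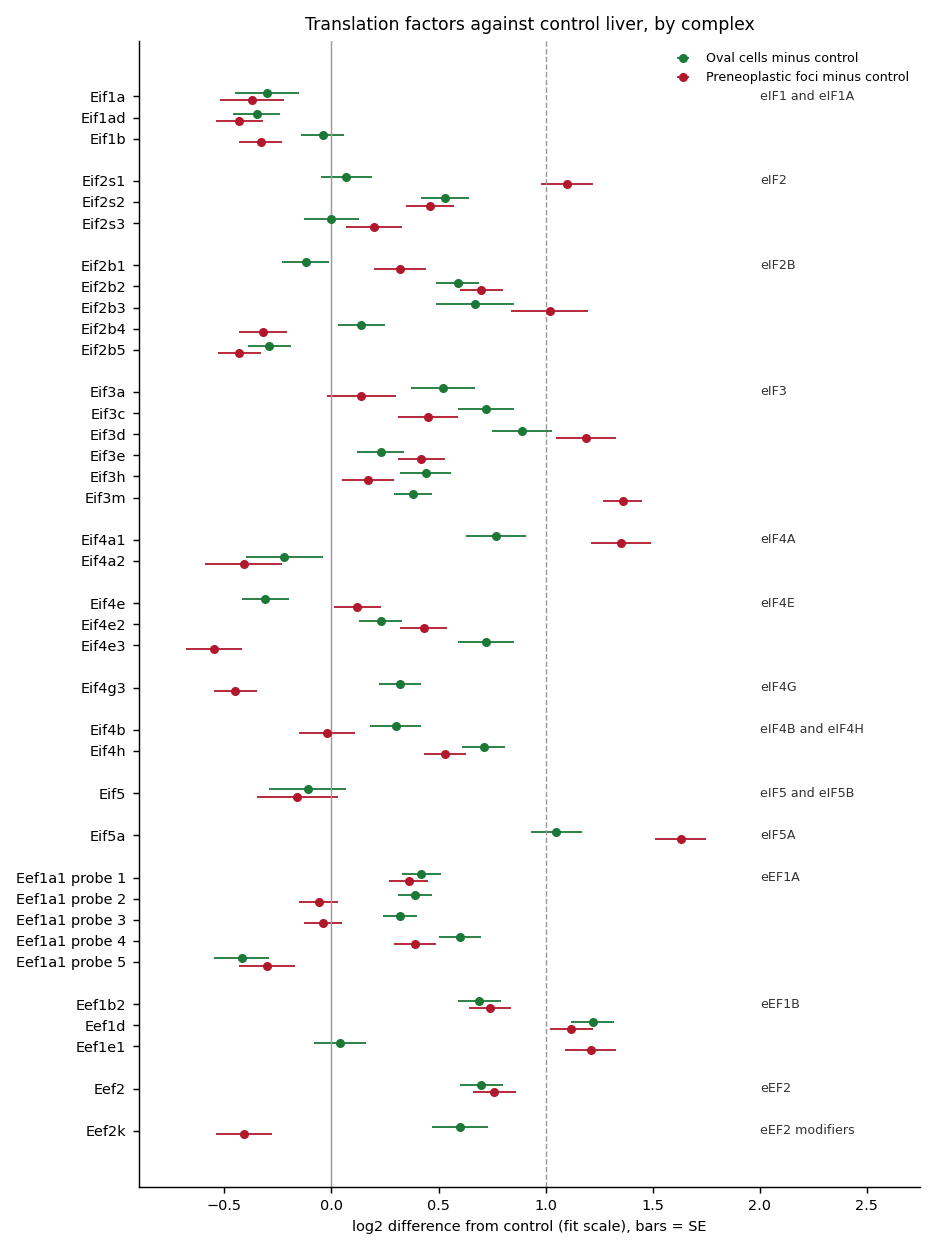
Log2 difference from control (horizontal axis, quantile-normalized scale) of the 37 tested member probes, grouped by complex, for oval cells (green) and preneoplastic foci (red). Eef1e1 stands with eEF1B by its name only. Points are limma estimates, bars their SE, dashed lines 2-fold. Most points lie right of 0, Eif5a in foci reaches 1.63, and with centring on ribosomal protein probes only Eef1d stays higher in oval cells and 6 members in foci.

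The factors that select the start codon were not among those that rose. Eif1a and Eif1b, of the eIF1A and eIF1 families, were lower in foci by adjusted p, by 0.37 and 0.33 on the log2 scale, beside 32% of all tested probes lower there. For Eif1a this rested on 1 control array: control read 1468 and 1113, foci 926 to 1119, and without Control replicate 1 the difference was -0.16 (adjusted p = 0.487). Eif1b (start codon fidelity factor eIF1, paralog B) read 2013 and 2064 in control, 1525, 1871, 1563, 1540 and 1690 in foci, and 1904, 1934 and 2176 (lowest, median, highest) in oval cells. All 5 foci arrays lay below all others. The difference was -0.33 ± 0.10 (SE, limma adjusted p = 0.00902) in foci and -0.04 ± 0.10 (adjusted p = 0.744) in oval cells. Without Control replicate 2 the value in foci was -0.31 (adjusted p = 0.0615). Eif1ad, which carries an eIF1A-like domain, was tested only because control passed the limit, with 352 and 331, against 257 to 306 in oval cells and 255 to 290 in foci. Since all foci arrays were under 300, it was at least 1.14-fold lower there, and in oval cells the difference was -0.35, which did not pass without Control replicate 1 (-0.30, adjusted p = 0.0902). Because the limit admitted Eif1ad through control, where it was highest, these differences are no independent support. The counts of lower members above include it in both tissues.

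Within eIF2, the alpha subunit, which is phosphorylated in stress, rose in foci. Eif2s1, its gene, read 550 and 667 in control, 582, 625 and 692 (lowest, median, highest) in oval cells, and 1238, 1311, 1204, 1050 and 1286 in foci. Oval cells overlapped with control and every focus array was above every other array. Eif2s1 rose by 1.10 ± 0.12 in foci (adjusted p = 2.76e-06), while the difference in oval cells was 0.07 ± 0.12 (adjusted p = 0.619). Without Control replicate 1 the value in foci was 0.94, under 2-fold.

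The beta subunit Eif2s2 was higher in both tissues. Its arrays read 4488 and 4710 in control, 6113 to 7399 in oval cells and 5346 to 7054 in foci, with log2 differences of 0.53 ± 0.11 and 0.46 ± 0.11 (adjusted p = 0.000477 and 0.00224), the latter 0.21 with cyclic loess normalization (adjusted p = 0.095). The gamma subunit Eif2s3 did not pass the test in either (0.00 and 0.20). With ribosomal centring no eIF2 subunit was higher in either tissue, and Eif2s2 and Eif2s3 were lower in both.

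The 5 subunits of eIF2B moved in different directions. Eif2b3, the gamma subunit that acts with the catalytic epsilon subunit, read 338 and 425 in control, 483, 551 and 666 in oval cells (lowest, median, highest) and 754, 886, 658, 536 and 688 in foci. Both tissues lay above control and overlapped with each other. It rose in foci by 1.02 ± 0.18 (adjusted p = 0.000234) and was 0.67 ± 0.18 higher in oval cells (adjusted p = 0.00383). The rise in foci sat at the 2-fold limit and was 0.81 without Control replicate 1, 0.98 without foci replicate 1 and 0.92 without foci replicate 2, and the oval cell difference did not pass without Control replicate 1 (0.47, adjusted p = 0.0966).

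Eif2b2 (beta) was higher in both, by 0.59 in oval cells and 0.70 in foci. The epsilon subunit Eif2b5, which catalyses nucleotide exchange, was lower in both, with 1432 and 1646 in control, 1187 to 1379 in oval cells and 1056 to 1270 in foci (-0.29 ± 0.10 and -0.43 ± 0.10, adjusted p = 0.0185 and 0.00227). Without Control replicate 2 neither passed, at -0.19 (adjusted p = 0.232) and -0.32 (adjusted p = 0.0531). Eif2b1 (alpha) was higher in foci only (0.32) and Eif2b4 (delta) lower in foci only (-0.32), neither of which passed without Control replicate 1 (adjusted p = 0.136 and 0.141), and oval cells and foci differed for both (-0.44 and 0.45, adjusted p = 0.000254 and 0.000119). With ribosomal centring Eif2b5, Eif2b4 and Eif2b1 were lower in both tissues, Eif2b2 was lower in oval cells, and no subunit was higher.

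The scaffold eIF3, which holds the small subunit and the mRNA together, lay mostly above control. Of 6 tested subunits 5 were higher in oval cells and 4 in foci by adjusted p, and 0 were lower in either, beside 36.4% and 32.7% of all tested probes higher and 34.4% and 32% lower, but with ribosomal centring Eif3a, Eif3e, Eif3h and Eif3m were lower in oval cells, Eif3a, Eif3c, Eif3e and Eif3h lower in foci, and Eif3d and Eif3m alone stayed higher, in foci. Eif3m read 1080 and 1136 in control, 1322, 1403 and 1616 in oval cells, and 2771, 2750, 2610, 2665 and 2852 in foci. The 3 groups were apart, with oval cells close to control. The rise in foci was 1.36 ± 0.09 (adjusted p = 1.98e-08), and oval cells were 0.38 ± 0.09 higher than control (adjusted p = 0.00137).

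Eif3d, a subunit that can itself bind the cap of some mRNAs, read 1994 and 2021 in control, 3196, 3610 and 4197 in oval cells and 4710, 4814, 4052, 3793 and 5232 in foci. Both tissues lay above control and overlapped. It rose by 1.19 ± 0.14 in foci (adjusted p = 4.95e-06) and was higher by 0.89 ± 0.14 in oval cells (adjusted p = 4.43e-05). Eif3a, the largest subunit, and Eif3h were higher in oval cells only (0.52 and 0.44), Eif3e in foci only (0.42), and Eif3c in both (0.72 and 0.45). Several of these did not pass under another setting. Eif3a was 0.25 with cyclic loess (adjusted p = 0.129) and 0.40 without Control replicate 1 (adjusted p = 0.107), and its adjusted p was 0.0549 by the methods' t-test. Eif3h was 0.23 with cyclic loess (adjusted p = 0.0834). In foci Eif3e was 0.27 without Control replicate 2 (adjusted p = 0.101), and Eif3c was 0.22 with cyclic loess (adjusted p = 0.15). All 6 differed between oval cells and foci by adjusted p, beside 70.1% of all tested probes, with Eif3a, Eif3c and Eif3h higher in oval cells and Eif3d, Eif3e and Eif3m higher in foci, a split that ribosomal centring did not alter, although Eif3c, Eif3d and Eif3e each missed the threshold when some single array was left out.

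Of the cap-binding machinery, the helicase Eif4a1 rose in foci and its paralog Eif4a2 did not. Eif4a1 read 1569 and 1864 in control, 2471, 2832 and 3437 in oval cells, and 4592, 4379, 3882, 3582 and 4913 in foci. The groups followed one another without overlap. The differences were 0.77 ± 0.14 in oval cells (adjusted p = 0.000141) and 1.35 ± 0.14 in foci (adjusted p = 1.27e-06), and the latter stayed higher with ribosomal centring. Eif4a2 read 4329 and 5222 in control, 3300 to 5740 in oval cells and 3216 to 4069 in foci, with differences of -0.22 ± 0.18 and -0.41 ± 0.18 that did not pass (adjusted p = 0.276 and 0.0571).

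The cap-binding proteins themselves went 3 ways. Eif4e, the general cap-binding protein, was lower in oval cells, with 810 and 879 in control and 641, 694 and 741 (lowest, median, highest) in oval cells, and did not differ in foci by the test, with 842 to 1084 (-0.31 ± 0.11 and 0.12 ± 0.11, adjusted p = 0.021 and 0.346). Without Control replicate 2 the oval cell value was -0.25 (adjusted p = 0.167). Eif4e2, which binds the cap and represses some mRNAs, was higher in foci (0.43, adjusted p = 0.00261), and its oval cell difference was 0.23 (adjusted p = 0.0641). Eif4e3, another cap-binding paralog, read 510 and 449 in control, 682, 725 and 878 in oval cells, and 347, 321, 333, 417 and 333 in foci. Oval cell arrays were all above control and foci arrays all below it. The log2 difference was 0.72 ± 0.13 in oval cells and -0.55 ± 0.13 in foci (adjusted p = 0.000167 and 0.00219).

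Eif4g3, a scaffold of the eIF4G family, had the same order, with 990 and 925 in control, 1032, 1207 and 1276 in oval cells, and 727, 761, 656, 708 and 756 in foci. Its differences were 0.32 ± 0.10 and -0.45 ± 0.10 (adjusted p = 0.00844 and 0.00131), and the former did not pass without Control replicate 2 (0.27, adjusted p = 0.0904). The helicase cofactor Eif4h was higher in both (0.71 and 0.53), and Eif4b in oval cells only (0.30, adjusted p = 0.0371, against -0.02 in foci), which failed without either control array or with cyclic loess (adjusted p = 0.075, 0.209 and 0.144). With ribosomal centring Eif4e, Eif4e2, Eif4g3 and Eif4b were lower than control in both tissues, and Eif4e3 and Eif4h lower in foci.

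Eif5a, a factor that carries the modified lysine hypusine and helps ribosomes through difficult stretches, had the largest difference of all members in foci. It read 1266 and 1232 in control, 2261, 2477 and 2864 (lowest, median, highest) in oval cells, and 4221, 3582, 3317, 3561 and 3995 in foci. The 3 groups did not overlap. It rose by 1.05 ± 0.12 in oval cells (adjusted p = 1.72e-06) and by 1.63 ± 0.12 in foci (adjusted p = 5.26e-08). With cyclic loess normalization the oval cell value was 0.89, and with ribosomal centring only the foci were higher. Its paralog Eif5a2 was under 300 on every array, and Eif5, the GTPase activator of eIF2, did not pass the test in either tissue (-0.11 and -0.16).

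**Figure D2:**
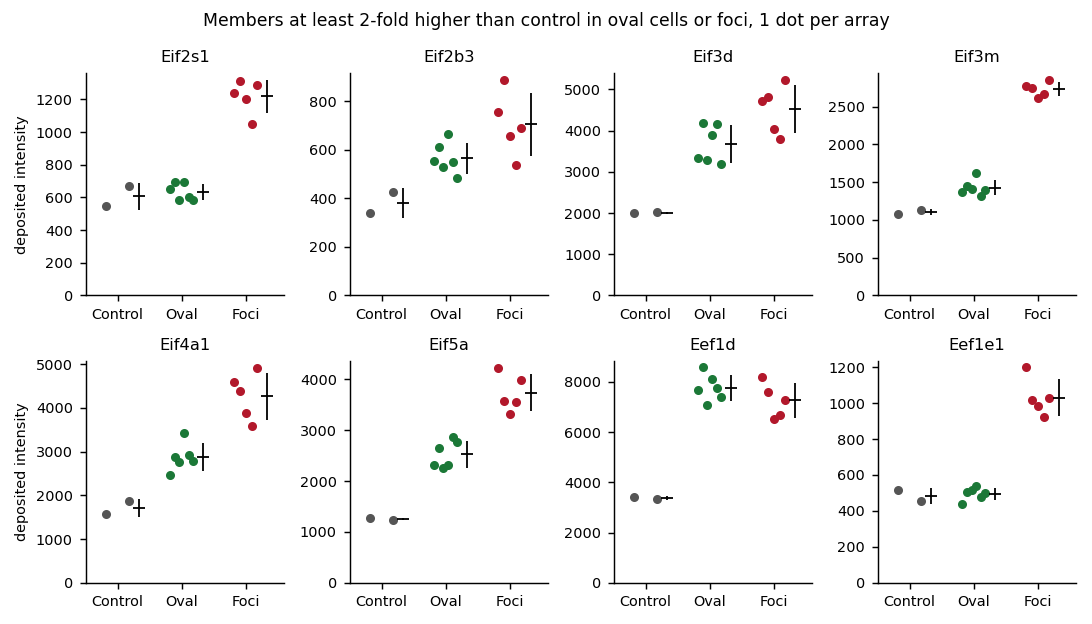
Deposited intensity (linear axis from 0) of the 8 members that rose in oval cells or foci, 1 dot per array for control (grey), oval cells (green) and foci (red), with the group mean and SD beside the dots. Foci lie apart from both other groups for Eif2s1, Eif3m and Eef1e1, where oval cells sit at or close to control. With centring on ribosomal protein probes Eif2s1 and Eif2b3 are not higher in foci, and Eef1d alone is higher in oval cells.

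Among elongation factors, Eef1d rose in both tissues. Eef1d, the delta subunit that recharges eEF1A, read 3421 and 3320 in control, 7063, 7703 and 8586 in oval cells, and 8206, 7583, 6527, 6696 and 7298 in foci. Both tissues were far above control and overlapped with each other. It rose by 1.22 ± 0.10 in oval cells (adjusted p = 8.99e-08), the largest member difference there, and by 1.12 ± 0.10 in foci (adjusted p = 5.03e-07). It was also the only member higher in both tissues with ribosomal centring, although cyclic loess normalization took both below 2-fold (0.94 and 0.86).

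Eef1b2, the subunit of the same complex with the pyrimidine run shown above just after its annotated start, was higher in both by 0.69 ± 0.10 and 0.74 ± 0.10 (adjusted p = 1.48e-05 and 1.45e-05), but not with ribosomal centring. Eef1e1 bears an elongation factor's name but is known as a small scaffold protein of the multi-tRNA synthetase complex. It read 515 and 453 in control, 436, 503 and 538 in oval cells, and 1199, 1018, 986, 924 and 1026 in foci. Oval cells overlapped with control and all foci lay above both. It rose by 1.21 ± 0.12 in foci (adjusted p = 7.5e-07), and the oval cell difference was 0.04 ± 0.12 (adjusted p = 0.775).

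The translocase Eef2 read 9432 and 10633 in control, 14374, 16403 and 18402 in oval cells, and 16082, 17873, 16655, 16529 and 17572 in foci. Both groups were above control and overlapped. The differences were 0.70 ± 0.10 and 0.76 ± 0.10 (adjusted p = 2.1e-05 and 1.81e-05), but with ribosomal centring Eef2 was lower in oval cells. Its kinase Eef2k read 302 and 304 in control, 362, 428 and 508 in oval cells, and 252, 252, 237, 255 and 234 in foci. Oval cells were above and foci below control, with foci all under the limit of 300. It was 0.60 ± 0.13 higher in oval cells (adjusted p = 0.000679). In foci the fit gave -0.41 ± 0.13 (adjusted p = 0.013), but against the limit this is only at least 1.01-fold, and it did not pass without either control array (adjusted p = 0.0665 and 0.0661).

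The delivery factor Eef1a1 was read by 5 probes, which did not give one answer. Probe 1 (probes are numbered by mean intensity) read 30658 and 29717 in control, 38363 to 43186 in oval cells and 35294 to 41982 in foci, and probe 4 read 10171 and 8223, 12725 to 14607 and 11501 to 12574. Both were higher in oval cells (0.42 and 0.60) and in foci (0.36 and 0.39) on the quantile scale, and probe 4 in foci was 0.24 without Control replicate 2 (adjusted p = 0.0951). Probe 2 read 26395 and 28147 in control, 34103 to 36666 in oval cells and 23670 to 28147 in foci, and probe 3 read 23552 and 24694, 29066 to 32377 and 22168 to 26033. Those 2 probes were higher in oval cells (0.39 and 0.32) and overlapped with control in foci (-0.06 and -0.04, adjusted p = 0.561 and 0.733).

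Within each array, probe 2 minus probe 1 was 0.42 lower in foci than in control on the log2 scale (range -0.68 to -0.24), and -0.03 in oval cells (-0.11 to 0.00). The dim probe 5 went the other way, at 345 and 356 in control, 248 to 333 in oval cells and 287 to 309 in foci (-0.42 and -0.30, adjusted p = 0.00781 and 0.0534). Probes 1 to 3 are among the brightest on the array, where quantile normalization fixes values by rank. With cyclic loess normalization most of the higher values did not pass: probes 1, 2 and 3 were at -0.09, -0.09 and -0.14 in oval cells (adjusted p = 0.339, 0.351 and 0.15), and probes 1 and 4 at -0.09 and 0.07 in foci (adjusted p = 0.351 and 0.579). Probe 4 in oval cells still passed at 0.24 (adjusted p = 0.0389), and probes 2 and 3 in foci were then lower than control at -0.49 and -0.45 (adjusted p = 0.000262 and 0.000392). With ribosomal centring all 5 were lower than control in both tissues. The second isoform gene, Eef1a2, known from nerve and muscle, was at 104 to 135 on every array and was not tested.

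**Figure D3:**
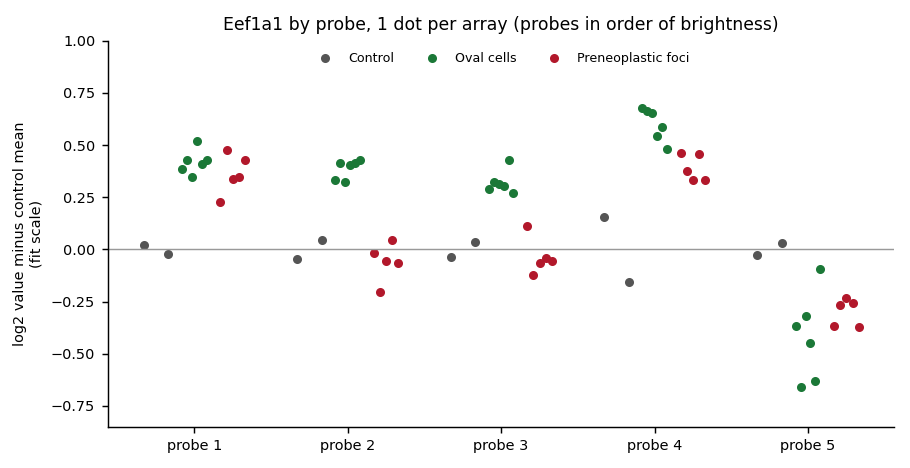
Log2 value of each Eef1a1 probe minus its control mean (quantile-normalized scale), 1 dot per array for control (grey), oval cells (green) and foci (red). Probes 1 and 4 are higher in both tissues, probes 2 and 3 in oval cells only and probe 5 is lower in oval cells. With cyclic loess probes 1 to 3 are not higher, and with centring on ribosomal protein probes all 5 are lower in both tissues.

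Oval cells and foci were then set against each other, a comparison that the ribosomal centring hardly touches, since it moves the median of all tested probes from -0.03 to -0.08. By adjusted p alone 24 of 37 member probes differed, 13 higher and 11 lower in oval cells. Of all tested probes 70.1% differed, 34.1% higher and 35.9% lower. Counted by gene, each by its brightest probe, 10 of 33 were higher and 11 lower. With ribosomal centring 11 of the 13 higher probes and all 11 lower ones kept their call, and none of the 24 passed in the opposite direction. At 2-fold, 2 were higher (Eif4e3 and Eef2k) and 2 lower (Eef1e1 and Eif2s1) in oval cells, beside 7.96% and 6.73% of all, and 8 and 7 did not overlap, beside 25.8% and 25.7%.

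Eif4e3 was higher in oval cells by 1.28 ± 0.10 (adjusted p = 3.27e-08) and Eef2k by 1.01 ± 0.09 (adjusted p = 2.6e-07), which for Eef2k, whose foci arrays were all under the limit, is at least 1.42-fold against that limit. Eef1e1 was lower by 1.18 ± 0.09 on the log2 scale (adjusted p = 2.25e-08) and Eif2s1 by 1.03 ± 0.09 (adjusted p = 1.17e-07). Eif3m (-0.97 ± 0.07, adjusted p = 1.14e-08) came just short of 2-fold, followed by Eif5a and Eif4a1 (both -0.58) and by Eif4g3 on the other side (0.77 ± 0.07, adjusted p = 2.75e-07). Eef2k, Eif2s1 and Eif3m depended on the settings. Eef2k was under 2-fold without background correction, with array weights or with ribosomal centring. Eif2s1 was -0.94 without background correction and just short of 2-fold without foci replicate 2. Eif3m passed 2-fold with ribosomal centring, at -1.02. The members that did not differ by the test included Eef1d, Eef1b2, Eef2 and Eif2s2 (0.10 ± 0.08, -0.05 ± 0.07, -0.06 ± 0.08 and 0.07 ± 0.08).

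**Figure D4:**
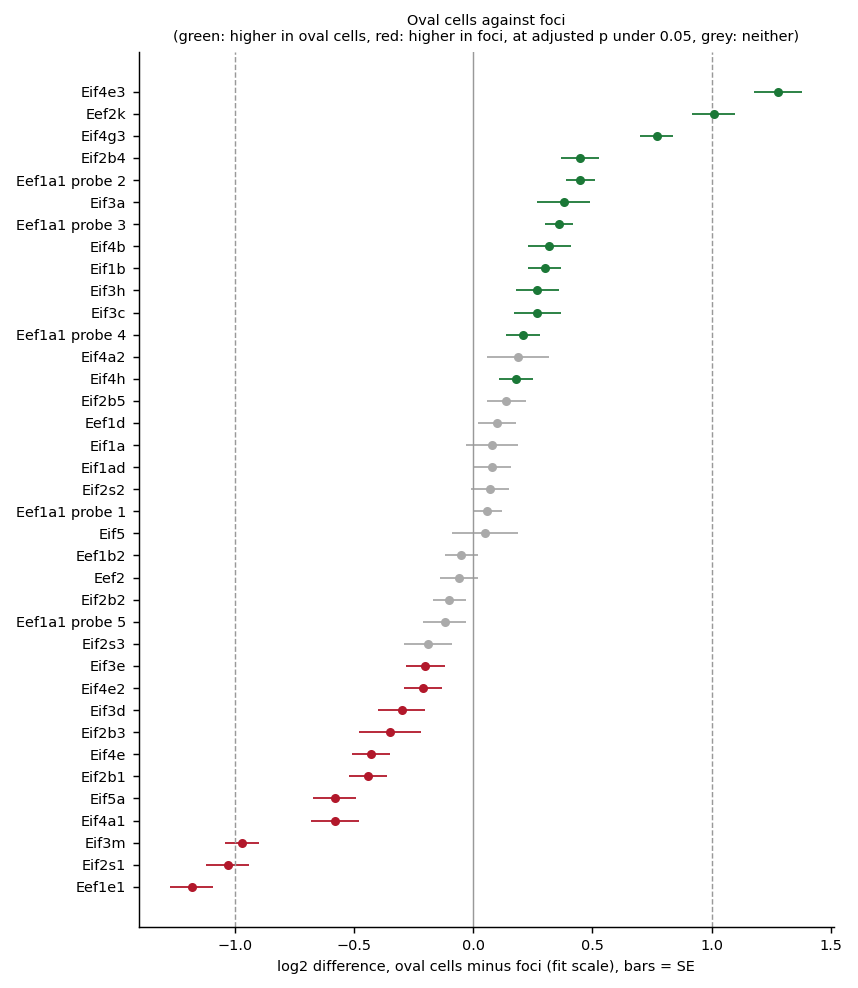
Log2 difference of oval cells minus foci (horizontal axis, quantile-normalized scale) for the 37 tested member probes in order, with SE bars and dashed lines at 2-fold. Green probes were higher in oval cells and red probes higher in foci at an adjusted p under 0.05. Eif4e3, Eef2k and Eif4g3 stand at one end, and Eef1e1, Eif2s1 and Eif3m at the other.

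The comparisons of oval cells and of foci with control share the 2 control arrays. Eif4e3 (0.72 in oval cells, -0.55 in foci) and Eif4g3 (0.32 and -0.45) lay on opposite sides of control on the quantile scale, as did the fitted values of Eef2k (0.60 and -0.41), whose foci arrays were all under the limit, at least 1.01-fold below control. With ribosomal centring Eif4g3 and Eef2k were lower than control in both tissues, Eif4e3 was at -0.18 in oval cells (adjusted p = 0.279) and -1.40 in foci, and all 3 still differed between oval cells and foci.

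Differences between paired factors on the same array do not depend on how arrays are centred. They can still depend on the normalization where 1 factor is much brighter than the other. The pairs were computed on the quantile scale and not with cyclic loess. Relative to its control mean, Eif4a1 minus Eif4a2 was 0.99 (0.72 to 1.21) on the oval cell arrays and 1.76 (1.54 to 2.02) on the foci arrays in log2 units. Eif4e3 minus Eif4e was 1.03 (0.85 to 1.21) and -0.68 (-0.95 to -0.27). Eif2s1 minus Eif2s2 was -0.46 (-0.60 to -0.35) and 0.64 (0.59 to 0.76), and Eef1e1 minus Eef1b2 was -0.65 (-0.92 to -0.48) and 0.47 (0.30 to 0.71). The last 3 pairs were on opposite sides of control in oval cells and foci, without overlap between them, and these pairs were picked with their values known, so no test is given.

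**Figure D5:**
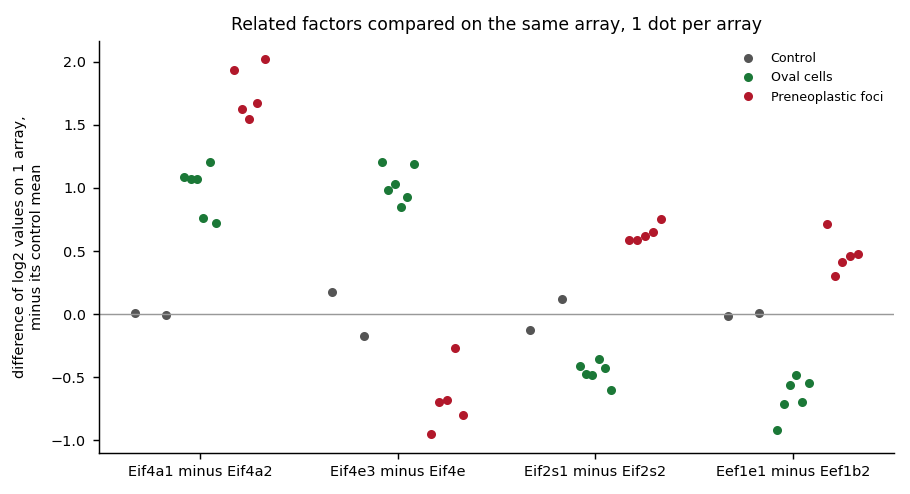
Difference of the log2 values of 2 factors on the same array, minus its mean in control (vertical axis, log2 units), 1 dot per array for control (grey), oval cells (green) and foci (red). Eef1e1 and Eef1b2 are paired by name only. Eif4a1 minus Eif4a2 is above control in both tissues and higher in foci, and the other 3 differences lie on opposite sides of control in oval cells and foci.

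Other genes of the translation pathway were counted from lists by adjusted p, to be read beside 36.4% of all tested probes higher and 34.4% lower in oval cells, and 32.7% higher and 32% lower in foci. Their values are on the quantile scale only. The alternatives, with ribosomal centring, cyclic loess and leaving out arrays, were examined for the members and not for these genes. Of 4 tested binding proteins and kinases that restrain initiation 1 was higher and 2 lower in oval cells, and 1 was higher and 1 lower in foci. The eIF4E inhibitor Eif4ebp1 rose in foci (1.39 ± 0.10, adjusted p = 4.93e-08) and was higher in oval cells (0.84 ± 0.10), whereas the heme-regulated eIF2 kinase Eif2ak1 fell in oval cells by 1.04 ± 0.13 (adjusted p = 3.71e-06) and was lower in foci (-0.44). Eif4ebp2, a paralog of Eif4ebp1, was under 300 on all oval cell arrays, at least 1.03-fold below control (fitted -0.71, adjusted p = 0.000374), and its difference in foci was 0.09 (adjusted p = 0.617). The erythroid probes given above were lower in both tissues too, and their part in Eif2ak1 was not tested. Of 11 cap and poly(A) helpers and kinases 3 were higher and 2 lower in oval cells, and 2 higher and 3 lower in foci (27.3% and 18.2%, then 18.2% and 27.3%), shares below those of all tested probes. In this list the poly(A)-binding protein Pabpc4 rose in foci (1.52 ± 0.14, adjusted p = 4.75e-07), with means of 1388 in control, 1953 in oval cells and 3866 in foci.

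Of 5 termination and reinitiation factors 3 were higher and 1 lower in each tissue, beside 36.4% and 34.4% of all tested probes in oval cells and 32.7% and 32% in foci, and the reinitiation factor Mcts1 was lower in oval cells (-0.62) and higher in foci (0.48), so that the tissues differed by -1.10 ± 0.07 (adjusted p = 1.14e-08). Of 2 tested hypusine and diphthamide enzymes, Dhps, which starts the hypusine modification of eIF5A, was higher in oval cells (0.46, adjusted p = 0.00634), and Dph5, of the diphthamide pathway of eEF2, was higher in foci (0.61, adjusted p = 0.00179).

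Cytosolic aminoacyl-tRNA synthetases and their partners were mostly lower in oval cells than in foci. Of 18 tested probes 12 were lower and 3 higher in oval cells than in foci by adjusted p, beside 35.9% and 34.1% of all tested probes, with a median of -0.53 against -0.03 for all tested probes. Against control, 3 were higher and 6 lower in oval cells and 8 higher and 1 lower in foci, beside 36.4% and 34.4%, then 32.7% and 32% of all tested probes. The gene Tars1 had 2 of these probes, which disagreed in foci. It was the 1 lower (-0.41, adjusted p = 0.00199) and also among the 8 higher (0.31, adjusted p = 0.0276). Between oval cells and foci these probes differed by -0.12 (adjusted p = 0.146) and -1.01 (adjusted p = 7.22e-08). Eprs1, the glutamyl-prolyl synthetase, fell in oval cells by 1.25 ± 0.16 (adjusted p = 5.26e-06), with means of 917 in control, 428 in oval cells and 961 in foci. Vars1, the valyl synthetase, rose in oval cells (1.14 ± 0.13, adjusted p = 1.73e-06), and Farsb, a phenylalanyl synthetase subunit, rose in foci (1.00 ± 0.14, adjusted p = 2.73e-05).

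In the response to eIF2 phosphorylation, 4 of 12 listed probes were tested. Atf4, the transcription factor at its centre, was lower in oval cells (-0.67 ± 0.12) and higher in foci (0.36 ± 0.12), and the tissues differed by -1.03 ± 0.09 (adjusted p = 1e-07). Trib3, one of its targets, was tested only because foci passed the limit, with a mean of 960 ± 355 (SD, n = 5) there and 242 in control. Since all control arrays were under the limit, the foci mean was at least 3.2-fold above control. Ddit3, a further target, rose in oval cells (1.09 ± 0.27, adjusted p = 0.00248). Of 5 tested mitochondrial translation factors 4 were lower in oval cells than in control and 4 lower than in foci, beside 34.4% and 35.9% of all tested probes, among them the elongation factors Gfm1 (-0.54 against control) and Tufm (-0.60 against foci). In foci 1 of these 5 was higher than control and 1 lower, beside 32.7% and 32%.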

How the data were processed

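Total RNA from laser-microdissected rat liver was hybridised to 1-colour Illumina rat arrays (13 arrays). The authors read the arrays with BeadStudio 3.0.19.0 and deposited quantile-normalized intensity values, 104 to 43186, with 26.8% of probes above 300 on each array. A second deposited table of scanner values was not used, because its 26 per-sample columns match no label. From the deposited intensity values, normexp background correction (offset 50), quantile normalization and log2 were computed, and limma 3.58.1 in R 4.3.3 fitted the 3 groups to all probes with a median above 300 in at least 1 group, with Benjamini-Hochberg adjustment over all of them. The code was tested on simulated data. Probes were named by the platform annotation (13793 of 22523 with 1 symbol, 8730 without), and 43 of 44 member probes matched RefSeq, Eif5 by symbol alone. A level is a deposited intensity, and every log2 difference is from the fit. The precision is limited by the number of arrays, and replicates, numbered in accession order, pair nothing.

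Members, gene lists and alternatives were chosen with earlier results of these data known. Named were members that rose or fell, the brightest of each complex, the isoform sets and leading genes of each list. The promoters, the motifs and the pairs of factors were also chosen with results known. Alternatives covered background correction, offset, filters, array weights, Student's t-test, normalization, centring, groups fitted, call rule and leaving out each array. The study names that t-test in its general statistics, and tested its arrays by an F-test with a random variance model and a permutation test.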

Additional observations from a re-analysis of the deposited data

Results flagged for a closer look

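Eif4e3, Eif4g3 and Eef2k lay on opposite sides of control in the 2 tissues, and the direct comparison of oval cells and foci differed by 1.28, 0.77 and 1.01 on the log2 scale (limma adjusted p = 3.27e-08, 2.75e-07 and 2.6e-07). All 6 oval cell arrays were above both controls and all 5 foci arrays below them for each of the 3 genes. For Eef2k the foci arrays were all under the limit of 300, which puts them only at least 1.01-fold below control. With centring on ribosomal protein probes Eif4g3 and Eef2k were lower than control in both tissues, and Eif4e3 was at -0.18 in oval cells (adjusted p = 0.279) and -1.40 in foci, so that none of the 3 was above control in oval cells. Slide and foci cannot be told apart in this difference.

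A single array stood away from its group in 2 of 88 sets of arrays examined, fewer than the about 1 in 20 that chance gives. Oval cell replicate 4 read 1355 for Eif2b2, where the other oval cell arrays read 1163 to 1206. Oval cell replicate 5 read 32377 for Eef1a1 probe 3, where the others read 29066 to 30177.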

How the results depend on the processing

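Of 2565 values of single members under the alternatives, 2470 kept their side of the 2-fold limit without a change of direction that passed an adjusted p, 29 fell short of the limit, 21 passed it newly and 45 changed direction where the value was past an adjusted p of 0.05 before or after. Another 10 changed sign with neither value past it. Of the 45, 4 came from cyclic loess, all in Eef1a1 (probes 1, 2 and 3 in oval cells at -0.09, -0.09 and -0.14, and probe 1 in foci at -0.09). The other 41 came from ribosomal centring, which lowers values against control because the ribosomal probes were higher in both tissues. In oval cells these were Eif2s1 -0.83, Eif2s2 -0.37, Eif2s3 -0.89, Eif2b2 -0.30, Eif2b3 -0.22, Eif2b4 -0.76, Eif3a -0.38, Eif3c -0.18, Eif3d -0.01, Eif3e -0.67, Eif3h -0.46, Eif3m -0.51, Eif4a1 -0.13, Eif4e2 -0.67, Eif4e3 -0.18, Eif4g3 -0.57, Eif4b -0.59, Eif4h -0.19, Eef1a1 probe 1 -0.48, Eef1a1 probe 2 -0.51, Eef1a1 probe 3 -0.58, Eef1a1 probe 4 -0.30, Eef1b2 -0.21, Eef1e1 -0.86, Eef2 -0.19 and Eef2k -0.30. In foci they were Eif2s2 -0.39, Eif2s3 -0.65, Eif2b1 -0.53, Eif2b2 -0.15, Eif3a -0.71, Eif3c -0.40, Eif3e -0.42, Eif3h -0.67, Eif4e -0.72, Eif4e2 -0.41, Eif4h -0.32, Eef1a1 probe 1 -0.48, Eef1a1 probe 4 -0.46, Eef1b2 -0.11 and Eef2 -0.09. By adjusted p alone 26 members differed from control in oval cells, 27 in foci, and 24 between both tissues, of which 14, 16 and 17 missed an adjusted p of 0.05 under none of the alternatives in which they were tested, ribosomal centring aside (the methods' filter leaves some of them untested). Leaving out 1 control array lost 8 calls in oval cells and 9 in foci against control. In oval cells against control 2 members rose and 0 fell. With the methods' filter 1 rose, with cyclic loess 0, with ribosomal centring 0 rose and 8 fell, and with no fold limit 22 were higher and 4 lower. Leaving out each array in turn always gave 2 and 0. In foci against control 8 rose and 0 fell. With the methods' filter 5 rose, with cyclic loess 6 (Eif3d at 1.00 and Eef1d at 0.86 fell short), without background correction or with array weights 7 (Eif2b3 at 0.87 and 0.98), with ribosomal centring 0 rose and 11 fell, and with no fold limit 19 were higher and 8 lower. Leaving out arrays gave 6 to 8 and 0. In oval cells against foci 2 were higher and 2 lower. Without background correction it was 1 and 1, with the methods' filter, array weights or ribosomal centring 1 higher, with no fold limit 13 and 11, and leaving out arrays 1 to 2 higher and 1 to 3 lower. With ribosomal centring Eif3m also passed the limit as lower, at -1.02. The methods' filter and the fold limit change what is tested or counted, and for the other settings the cause was not tested.

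With 2 control arrays, comparisons with control rest on few values. No paired analysis was possible because the labels give all arrays of a group the same replicate number and the groups share none.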
